A study of Drosophila melanogaster with 120 samples.

Results

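The transcripts described here are those of the glutathione S-transferase genes of Drosophila melanogaster, measured in whole adult flies of 15 hemiclonal lines. A probe set was taken as a member when the annotation of the array gave it 1 gene whose symbol is Gst followed by the class letter D, E, O, S, T or Z and a digit. The rule used names and no measured value. It found 36 probe sets for 34 genes among 18769 probe sets that are not controls, namely 11 genes of class D (delta), 13 of class E (epsilon), 3 of class O (omega), 1 of class S (sigma), 4 of class T (theta) and 2 of class Z (zeta). GstE8, the remaining family gene among 35 in the RefSeq gene table, had no probe set annotated to it alone. GstE9 and GstO2 had more than 1 probe set and are given by the one with the higher mean unless stated otherwise.

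Every fly of a hemiclonal line carries the same haploid genome, sampled from the outbred base population LHM, beside a second genome that varies from fly to fly. Each line was sampled as 4 pools of males and 4 pools of females, which gives 60 arrays of each sex and 120 in all, and each pool held 6 flies frozen whole on day 14 of the life cycle, at 4 adult days. On day 12 hemiclonal flies, gathered by 16 on day 10, were set for 24 h with LHM tester flies of the opposite sex. Another 20 h passed before the pools were drawn, and 4 h more before freezing. Hemiclonal stocks were kept with double-X females, so that a male has the X chromosome of its line as its only X, whereas a female has it beside another X. No treatment separated the arrays, the line names (H07 to P56) are given as labelled, and the fitness of the named lines was not used here. By the methods of the study the 4 pools of a line and sex were replicates produced independently. Tests of lines within a sex, and of sex differences that change between lines, are set against the spread between such pools. Tests of sex, and of lines over both sexes, are set against how far the sex difference changes from line to line. The p-values of correlations over lines come from permutations of line means. As a check of the sex labels, male and female arrays had no values in common range for Yp1, Yp2 and Yp3, which encode yolk proteins, and for SP and Acp26Aa of the seminal fluid. The lowest female value of Yp1 was 14.32 and the highest male value 9.84, and the male arrays spread from 3.70 to that value.

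Glutathione S-transferases are dimeric enzymes that join the tripeptide glutathione to electrophilic compounds such as insecticides, plant toxins and the aldehydes formed when lipids are oxidised, which makes these compounds easier to excrete. The delta and epsilon classes are expanded in insects and lie in clusters of neighbouring genes, and several of their members are known for detoxification and for induction by oxidative stress through the Keap1 and CncC regulators. The omega, sigma, theta and zeta classes are shared with vertebrates, and the zeta enzymes act in the breakdown of tyrosine. All 11 class D genes lie next to each other on chromosome arm 3R, in the order GstD10, GstD9, GstD1 to GstD8, GstD11. GstE10, GstE1 to GstE7 and GstE9 lie together on 2R with GstE8 among them, where the ends of GstE10 and GstE1 overlap, the class O genes lie together on 3L in the order GstO3, GstO2 and GstO1, with se before GstO2 and overlapping its end, GstT1 and GstT2 are neighbours on 2R and GstZ1 and GstZ2 on 3R, and GstT3 and GstT4 are on the X chromosome.

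Most members differed between the sexes, and more of them were higher in males than in females. With values on the log2 scale, where a difference of 1 is a 2-fold change, 18 of 34 genes (52.9%) were higher in males, 8 (23.5%) were higher in females and 8 did not pass. Over all 18769 probe sets 30.5% were higher in males and 60.9% higher in females, and sex was called for 91.4% in either direction. The calls come from the F test of sex in a mixed model whose random effects are line and its interaction with sex, with p-values adjusted over all probe sets by Benjamini-Hochberg and a threshold on the FDR, the expected share of false calls, of 0.001. The median difference, male minus female, was 0.39 over the family and -0.27 over all probe sets. Differences of 2-fold or more were found for 12 genes on the male side and 5 on the female side, against 19.5% and 20.4% of all probe sets. The arrays of the sexes did not overlap at all for 13 genes (38.2%), against 43.3% of all probe sets. These differences are relative to the scaling of the arrays, since the median of male arrays was 0.64 above that of female arrays. Centring every array on its own median put the median of all probe sets at -0.91 and left 12 genes higher in males against 16 in females, whereas centring on the ribosomal protein transcripts put it at 0.48 and left 28 against 6. As the samples were whole flies, fewer cells of a type and less RNA per cell cannot be told apart.

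**Figure D1:**
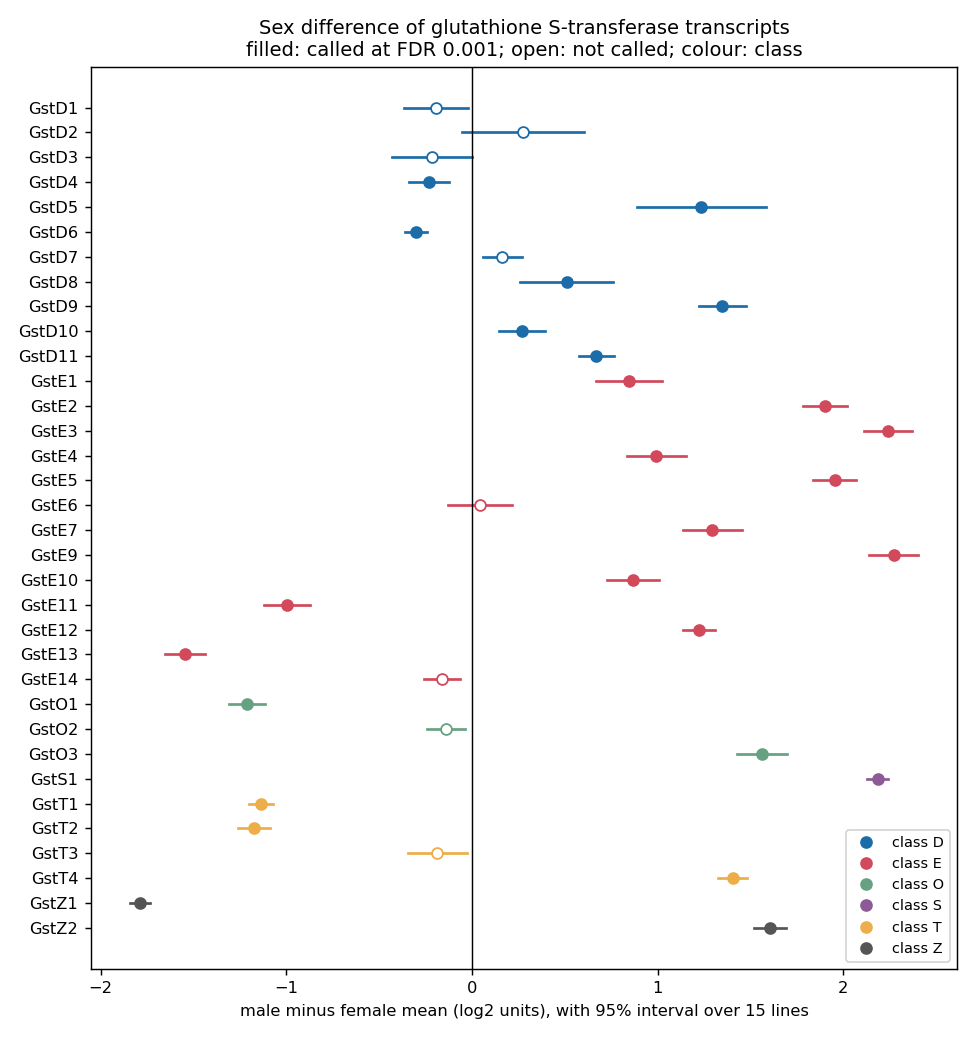
Male minus female mean of each of the 34 genes on the log2 scale, with points for the estimate, lines for its 95% interval over the 15 lines, filled points for genes called at an FDR of 0.001 and colours for the class. GstE9 at 2.27, GstE3 at 2.24 and GstS1 at 2.18 lie farthest to the male side, and GstZ1 at -1.79 and GstE13 at -1.55 farthest to the female side.

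The epsilon genes held the largest male excess of the family. The male mean of GstE9 was 12.36 and its female mean 10.09, which differ by 2.27 (SE 0.06, adjusted p = 7.16e-15 in the F test, higher in males in 15 of 15 lines), or 4.83-fold. Male arrays of GstE9 ran from 12.05 to 12.78 and female arrays stopped at 10.90, so no array of 1 sex reached the other. GstE3 followed with 2.24 (SE 0.06, 15 of 15 lines), GstE5 with 1.95 (SE 0.05), GstE2 with 1.90 (SE 0.06) and GstE7 with 1.29 (SE 0.07). GstE10 (8.80 in males, 7.93 in females), GstE1 (11.55 and 10.71) and GstE4 (6.93 and 5.94) had the smaller calls of the cluster, at 0.87, 0.85 and 0.99. Of the 9 genes of the epsilon cluster 8 were higher in males. The exception was GstE6, which lies between GstE5 and GstE7 with a male mean of 11.45 and a female mean of 11.41 (difference 0.04, SE 0.08, adjusted p = 0.613 in the F test, 95% interval -0.13 to 0.22) and which was higher in males in 8 lines and lower in 7. GstE12, outside the cluster, stood at 12.76 in males and 11.54 in females and was higher in males by 1.23 (SE 0.04). The epsilon genes higher in females were also outside the cluster, with GstE13 at 8.10 in males and 9.65 in females (difference -1.55, SE 0.05, 0 of 15 lines higher in males) and GstE11 at 8.14 and 9.14 (SE of the difference 0.06). GstE14, known as Noppera-bo and needed for the making of the moulting hormone ecdysone, did not pass with a difference of -0.16 (SE 0.05, adjusted p = 0.00397). The other probe set of GstE9 lay near the bottom of the scale, with means of 3.63 in males and 3.62 in females (difference 0.01, SE 0.04, not called). It was called between lines in both sexes all the same, with 51.1% of the variance in males and 76.7% in females, and it was highest in H09, H10 and H13, at 3.90 to 4.08 in males and 4.12 to 4.37 in females.

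The delta genes differed less between the sexes. GstD9 stood at 10.15 in males and 8.80 in females (difference 1.35, SE 0.06, adjusted p = 3.90e-12 in the F test, 15 of 15 lines) and was the only class D gene whose arrays of the sexes did not overlap. GstD5 was higher in males by 1.24 (SE 0.16), GstD11 by 0.67 (SE 0.04), GstD8 by 0.51 (SE 0.12) and GstD10 by 0.27 (SE 0.06). GstD1, whose enzyme is known for breaking down DDT and lipid aldehydes, did not pass, with 13.24 in males and 13.43 in females (difference -0.19, SE 0.08, adjusted p = 0.0336), nor did GstD2 (7.33 and 7.05), GstD3 (9.28 and 9.49) and GstD7 (5.77 and 5.60, adjusted p = 0.00583). GstD6 (-0.30, SE 0.03) and GstD4 (-0.23, SE 0.05) were called higher in females, but their means were below 5 in both sexes, at 3.63 and 3.93 for GstD6 and 4.20 and 4.43 for GstD4, where probe sets show little signal, and the female mean of GstD5 was 4.45. The differences of GstD1, GstD3, GstD4, GstD6, GstE14, GstO2 and GstT3 turned positive with ribosomal protein centring, at 0.45 to 0.62 and all called, and those of GstD2, GstD7, GstD8, GstD10 and GstE6 turned negative with median centring, at -0.59 to -0.13 and called for all but GstD2 and GstD8. The calls of GstD8, GstD4 and GstD10 were close to the threshold, since GstD8 no longer passed without any 1 of H07, H09, H10, H13, H14, P07, P13, P15, P18 or P56, GstD4 without any 1 of H07, H12, P15, P22, P48 or P50, and GstD10 without any 1 of H10, P07, P13, P15 or P26, with adjusted p-values of up to 0.00185.

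The remaining classes were split within themselves. The sigma gene GstS1, abundant in flight muscle, stood at 12.49 in males against 10.30 in females (difference 2.18, SE 0.03, adjusted p = 5.09e-19 in the F test, 15 of 15 lines). GstZ1 and GstZ2 are neighbours and went opposite ways, since GstZ1 had 6.44 in males and 8.22 in females (difference -1.79, SE 0.02) and GstZ2 had 7.43 and 5.83 (difference 1.61, SE 0.04), and neither had arrays that overlapped. Among the omega genes GstO3 was higher in males by 1.56 (SE 0.06), while GstO1 stood at 8.68 in males and 9.90 in females, with a difference of -1.21 (SE 0.05). GstO2 lies between them on the arm, and its probe sets disagreed, with 10.83 in males and 10.96 in females (difference -0.14, SE 0.05, adjusted p = 0.0117, not called) for the brighter and 0.52 (SE 0.07, adjusted p = 3.38e-06) for the other. The neighbouring theta genes GstT1 (-1.14, SE 0.03) and GstT2 (8.48 in males and 9.65 in females, difference -1.17, SE 0.04) were both higher in females in all 15 lines. Of the X-linked theta genes GstT4 stood at 11.47 in males and 10.06 in females and was higher in males by 1.40 (SE 0.04), and GstT3 did not pass, with a difference of -0.19 (SE 0.07, adjusted p = 0.0249).

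Lines differed in the level of many members, and which lines stood high or low often depended on the sex. Restricted likelihood ratio tests of the variance between lines, adjusted over all probe sets at an FDR of 0.001, called 21 of 34 genes in males, against 27.3% of all probe sets, and 14 in females, against 8.36%. Both sexes were called for 9 genes, against 5.46%. The sex-by-line variance, which measures how far the sex difference changes from line to line, was called for 13 genes, against 9.87%. Among the 12895 probe sets with a mean of at least 5 in either sex the corresponding shares were 39.3% in males, 12.4% in females and 14.2% for sex by line. No gene passed for the line variance over both sexes at this FDR, against 0.282% of all probe sets, and at an FDR of 0.05 it was called for 5 genes, GstE2, GstE5, GstE11, GstE14 and GstZ1, against 3.62%. This test sets lines against the sex-by-line variance. A fixed-effect fit with limma, which sets them against the spread between pools, called 25 genes at the FDR of 0.001, against 27.4% of all probe sets. Without 1 of the 4 replicate numbers the sex-by-line count fell to 7 or 8 and the male count to between 13 and 18. Among single lines, leaving out H12 took away the call of GstD2 in females (15.3%, adjusted p = 0.296) and of GstD10 in males (24.5%, adjusted p = 0.0538). The other line calls lost without 1 line were those of GstE2 in males (P13, P26 or P50) and in females (P50), GstE3 (H12), GstE9 (H07 or H14), GstD5 (P13 or P15) and GstZ1 (P18) in males, and GstE7 (P07) in females. Sex-by-line calls were lost for GstE1 (H07, H12, P07, P13 or P26), GstE7 (H10, P07 or P50), GstE10 (H07, H14 or P48), GstT1 (H12, H13 or P50), GstT2 (H09 or H14) and GstO1 (H07). By class, the male line term was called for 12 of 13 epsilon genes, all 3 omega genes and GstS1, but for 3 of 11 delta genes (5 with the replicate number as a block, where GstD7 and GstD11 joined), and the female line term for 7 epsilon, 4 delta and 2 theta genes, for GstZ1 and for no omega gene.

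**Figure D2:**
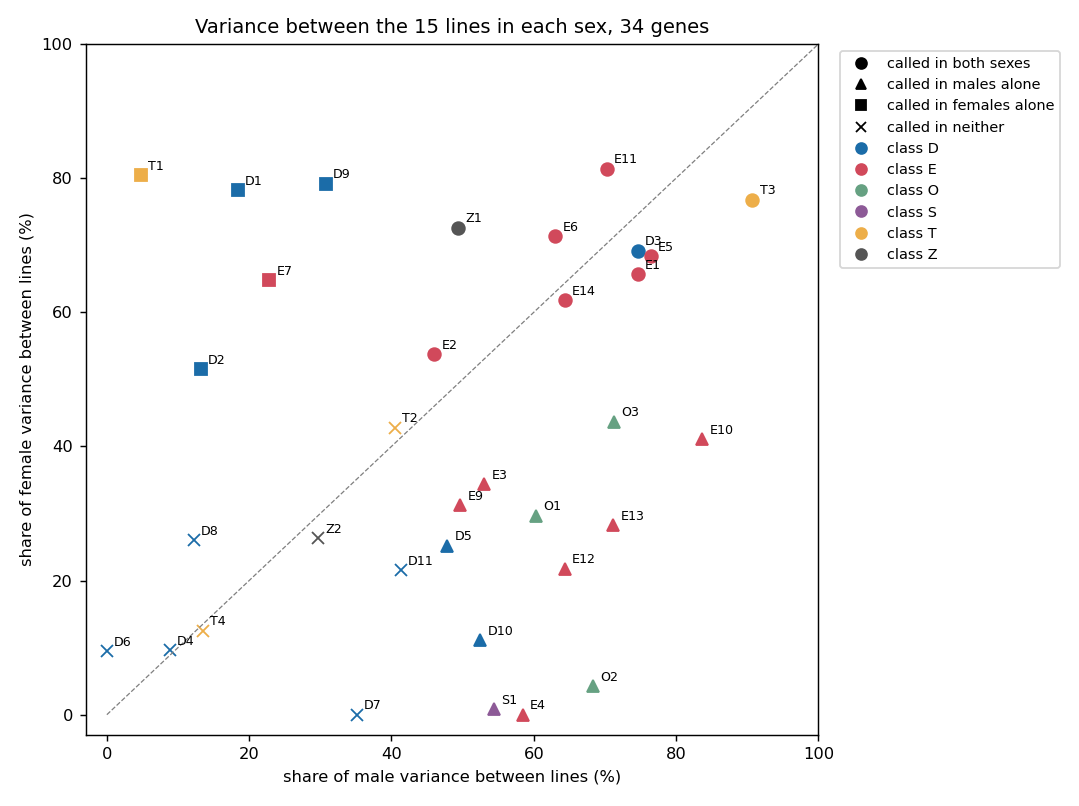
Share of variance between the 15 lines in males (horizontal axis, %) against the share in females (vertical axis, %) for 34 genes, with shapes for the sex in which the line term was called, colours for the class and a dashed line for equal shares. GstT1, GstD1, GstD9 and GstE7 lie at the upper left with 64.8% to 80.5% in females and 4.79% to 30.8% in males, and GstO2, GstE4 and GstS1 at the lower right with 54.4% to 68.3% in males and at most 4.20% in females.

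GstT3, on the X chromosome, had the largest line share in males and the largest sex-by-line share of the family. Its male line means ran from 9.49 in line P26 to 10.38 in H12, a 1.86-fold range, and between-line variance took 90.7% of the male variance (adjusted p = 2.43e-18, likelihood ratio test) and 76.8% of the female variance (adjusted p = 5.80e-10). The 4 male arrays were 9.66, 9.49, 9.48 and 9.32 in P26 and 10.28, 10.41, 10.37 and 10.48 in H12. Male lines fell in separate sets, with P13, P15, P26 and P56 at or below 9.65 and the other 11 lines at or above 9.95, and no array of the lower set (highest 9.78) reached the upper set (lowest 9.86). Females kept no such order. Line H12, the highest in males, was the lowest in females at 9.95, with arrays of 9.92, 9.93, 9.99 and 9.97, whereas H13 was the highest at 10.39, with 10.42, 10.41, 10.41 and 10.30. The male minus female difference of GstT3 therefore ran from -0.66 in P13 to 0.43 in H12, the correlation of male and female line means was 0.04 (rho 0.02, permutation p = 0.885), and sex by line took 85.2% of the variance (adjusted p = 1.26e-24, likelihood ratio test). GstT4, also X-linked, was called in neither sex (13.4% in males, 12.5% in females).

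GstD1 and its neighbour GstD9 varied between lines in females with the same 4 lines low. Female line means of GstD1 were 12.88 in P18, 12.90 in P26, 13.02 in P07 and 13.03 in H12, and between 13.52 and 13.71 in the other 11 lines. The arrays of GstD1 in those 4 lines were 13.14, 13.02, 12.55 and 12.81 in P18, then 12.55, 13.04, 13.08 and 12.94 in P26, between 12.88 and 13.31 in P07, and 13.11, 12.92, 12.85 and 13.26 in H12. The highest array of those 4 lines (13.31) just passed the lowest array of the other lines (13.26). GstD9 had female means of 8.28 in P26, 8.42 in P07, 8.44 in P18 and 8.45 in H12, and between 8.75 and 9.07 in the others. Lines took 78.2% of the female variance of GstD1 (adjusted p = 1.90e-10, likelihood ratio test) and 79.2% of that of GstD9 (adjusted p = 8.53e-11). In males neither was called. Male line means of GstD1 stayed between 13.09 and 13.44, with a line share of 18.4% (adjusted p = 0.111), and P07, one of the low lines of females, was the highest male line. The sex-by-line share was 65.2% for GstD1 (adjusted p = 5.66e-10) and 44.6% for GstD9 (adjusted p = 4.86e-08). GstD1 was higher in males only in 4 lines, with a difference of up to 0.42 in P07, and reached -0.56 in H14.

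**Figure D3:**
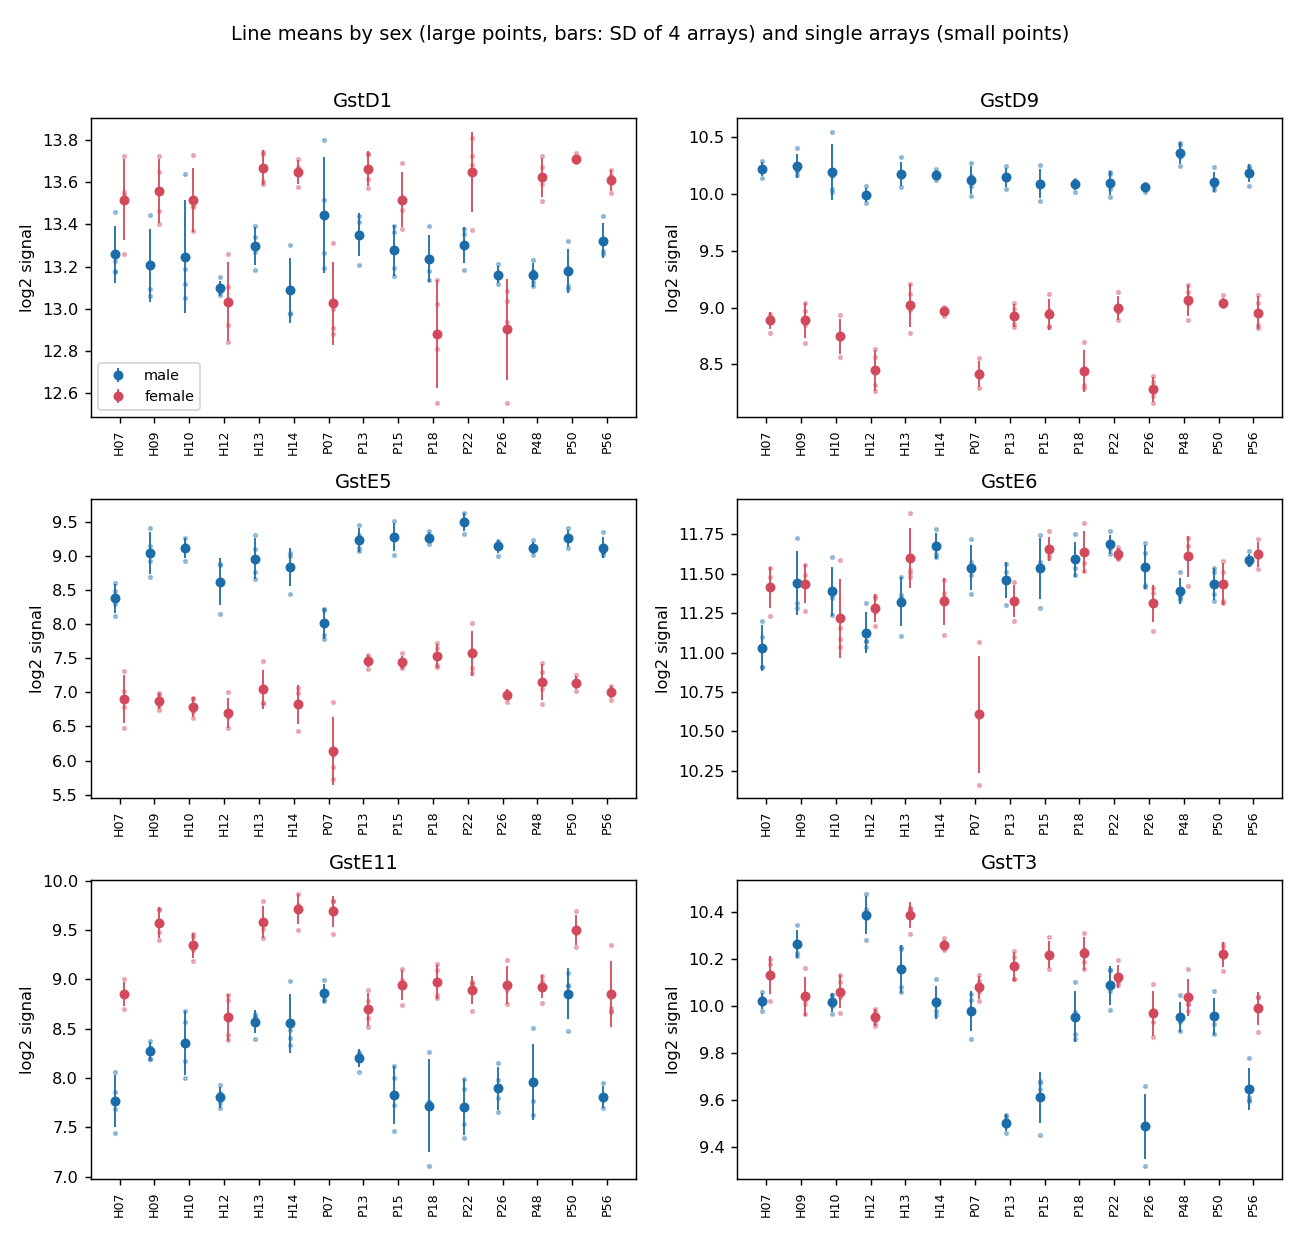
Level of 6 genes on the log2 scale in each of 15 lines, with large points for the mean of 4 arrays, bars for their SD, small points for single arrays, and males and females in separate colours. GstD1 and GstD9 show the low female means of H12, P07, P18 and P26, GstE6 the low female mean of P07 at 10.61, GstE11 the same high lines in both sexes, and GstT3 the low male means of P13, P15, P26 and P56.

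GstD3, 2 genes away from GstD1, was called in both sexes with unlike patterns. Its male line share was 74.6% and its female share 69.2%, and sex by line took 70.6% (adjusted p = 1.16e-11). In males H12 stood lowest at 8.70, with arrays of 8.72, 8.57, 8.96 and 8.55, and H14 highest with 9.53, 9.48, 9.53 and 9.41. In females P18 was lowest with 9.33, 8.97, 8.60 and 8.93, and P13 highest with 10.03, 10.11, 10.01 and 9.87. The correlation of male and female line means of GstD3 was -0.01 (rho -0.15, permutation p = 0.973).

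Line P07 was the lowest female line for GstE4, GstE5, GstE6 and GstE7 and for no other gene of the epsilon cluster. GstE4 was not called between female lines (share 0%, line means of 5.76 to 6.06), so its lowest line carries little weight. P07 was also the line most often lowest over all probe sets called in females, at 11.1% of them. GstE6 had a female mean of 10.61 in P07 and between 11.22 and 11.66 in the other 14 lines, and GstE7 had 8.23 in P07 and between 8.59 and 9.04 elsewhere. In males P07 was not low for either, with 11.54 for GstE6 against a range of 11.03 to 11.69 and 10.08 for GstE7 against 9.86 to 10.46. The sex-by-line share was 63.7% for GstE6 (adjusted p = 4.75e-10) and 43.0% for GstE7 (adjusted p = 2.95e-04, likelihood ratio test), and without line P07 it was 37.5% for GstE6 (adjusted p = 1.15e-04) and 31.9% for GstE7, which no longer passed (adjusted p = 0.00559). GstE5, the neighbour of GstE6, was lowest in P07 in both sexes, at 8.01 in males with arrays of 8.22, 7.84, 8.20 and 7.78, and at 6.14 in females with 6.86, 5.91, 6.08 and 5.73. Line P22 was highest in both, with male arrays of 9.32, 9.63, 9.54 and 9.49 and female arrays of 7.62, 8.02, 7.29 and 7.36. GstE5 ranged 2.80-fold between male lines and 2.69-fold between female lines, and lines took 76.4% of the male and 68.4% of the female variance.

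GstE10 and GstE1 lie at one end of the cluster, and GstE10 had the second largest male line share of the family after GstT3. GstE10 ranged from 8.27 in H13 (arrays 8.37, 8.37, 8.10 and 8.23) to 9.35 in P48 (9.39, 9.47, 9.06 and 9.49), with a male line share of 83.7% (adjusted p = 1.89e-13). H07, H09, H10 and H13 were its low male lines, at or below 8.41, and the other lines were at or above 8.65. In females H13 was again the lowest (7.63, 7.48, 7.61 and 7.64) and P18 the highest (8.12, 8.51, 8.66 and 8.18), with a share of 41.1% that was not called (adjusted p = 0.00367). GstE1 ran in males from 10.79 in H12 (10.97, 10.20, 10.94 and 11.06) to 12.04 in P18 (12.44, 11.99, 11.80 and 11.94), a 2.38-fold range, and in females from 10.06 in P50 (9.91, 9.90, 10.01 and 10.42) to 11.29 in P18 (11.06, 11.37, 11.61 and 11.13). The sex-by-line shares of GstE10 (23.9%, adjusted p = 4.06e-04) and GstE1 (22.5%, adjusted p = 3.04e-04) were called, and without line H07 that of GstE10 was 13.3% and did not pass (adjusted p = 0.0367).

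The male and female line means of GstE11, GstE14, GstE2 and GstZ1 went together, as did those of GstE5. GstE11 had high line means in H09, H10, H13, H14, P07 and P50 in females, between 9.34 and 9.71 against 8.61 to 8.97 in the other 9 lines, and the same 6 lines were the highest in males, at 8.27 to 8.86 against 7.70 to 8.20. It had the largest female line share of the family (81.4%, adjusted p = 1.08e-11), with 70.2% in males. GstE14 was low in P07, P22, P26 and P56 in both sexes, at 5.09 to 5.28 in males and 5.24 to 5.52 in females. GstZ1, known as maleylacetoacetate isomerase of tyrosine breakdown, was low in P07 and P18 in females (7.81 and 7.83, against 8.11 to 8.43) and lowest in the same lines in males (6.24 and 6.09). The correlation of male and female line means was 0.86 for GstZ1 (rho 0.80, permutation p = 4.00e-05, adjusted p = 0.00766 over all probe sets, r = 0.73 without P07 and P18). It was 0.85 for GstE5 (rho 0.85, permutation p = 5.00e-05, adjusted p = 0.00838, r = 0.82 without H07 and P07) and 0.85 for GstE11 (rho 0.71, permutation p = 2.40e-04, adjusted p = 0.0169, r = 0.82 without P07 and P50). GstE14 had 0.82 (rho 0.63, permutation p = 7.60e-04, adjusted p = 0.0307, r = 0.77 without P26 and P56) and GstE2 had 0.78 (rho 0.78, permutation p = 6.90e-04, adjusted p = 0.0292, r = 0.80 without P26 and P50). These 5 genes were the ones to pass an FDR of 0.05 by Pearson correlation, against 3.46% of all probe sets. By this measure 14 of 34 (41.2%) had an unadjusted p under 0.05, against 15.7% of all probe sets. In the permutation test of rho only GstE5 among the 5 passed (adjusted p = 0.0306). The adjusted p of rho was 0.0556 for GstZ1, 0.0648 for GstE2, 0.119 for GstE11 and 0.213 for GstE14. The median correlation was 0.42 over the family (rho 0.26) and 0.14 over all probe sets, with 0.64 over the epsilon genes and 0.24 over the delta genes. GstD8 was at the other end with -0.27 (permutation p = 0.330).

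GstO2, GstO1, GstO3, GstS1 and GstE13 had larger line shares in males, and GstT1 had the larger share in females. A share also depends on the spread between pools of a line. For GstS1 the SD of line means was 0.11 in males and 0.09 in females, beside pool SDs of 0.09 and 0.18. For GstO3 the line means spread more in females (SD 0.34, against 0.22 in males), beside pool SDs of 0.33 and 0.13. GstO2 had a male line share of 68.3% and a female share of 4.20%, with male line means from 10.59 in H07 to 11.14 in P56 and female means within 10.91 to 11.02, and its sex-by-line share was 62.4% (adjusted p = 1.16e-08). The other probe set of GstO2 gave 71.0% in males and 65.4% for sex by line, but was also called in females at 53.4%. GstO1 had 60.4% in males and 29.7% in females, with a sex-by-line share of 51.0% (adjusted p = 1.86e-06). GstO3 ran in males from 10.27 in P15 (10.57, 10.10, 10.06 and 10.36) to 10.96 in H10 (11.04, 10.85, 11.04 and 10.91), and in females from 8.47 in P50 (8.95, 8.33, 8.66 and 7.95) to 9.54 in H07 (9.78, 8.96, 10.09 and 9.32), and its share was 71.3% in males and 43.7% in females. GstT1 was called in females alone, with 80.5% (adjusted p = 2.75e-11) against 4.79% in males, and with H12 and H07 lowest at 10.61 and 10.63 and P50 highest at 11.07. GstT2 had similar shares in males (40.4%) and females (42.8%), called in neither. The sex-by-line shares of GstT2 (41.1%) and GstT1 (31.8%) were called. GstE13 had a male share of 71.1% and a female share of 28.2%, with sex by line at 41.0% (adjusted p = 1.53e-06). GstS1 had 54.4% in males and 0.856% in females, and its sex-by-line share of 2.66% was not called.

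Members of the epsilon cluster varied together over the lines. Over the 36 pairs of its 9 genes the median Pearson correlation of line means was 0.37 in males and 0.46 in females, and 12 and 14 pairs reached 0.5. Without line H07 the male median was 0.23, and without P18 the female median was 0.29. Over the 42 other epsilon pairs the medians were -0.01 and -0.00. For all pairs of probe sets the medians were 0.00 in males and 0.01 in females, with 5.22% and 5.55% of pairs at 0.5 or more, and for the 36266 pairs of measured genes that start within 20 kb of each other they were 0.04 and 0.05, with 10.4% and 11.2% at 0.5 or more. Class E as a whole had medians of 0.15 in males and 0.32 in females over 78 pairs, and without H07 the male value was 0.0789. Correlations between the 4 arrays of a line and sex, after taking out the line mean, had similar medians in the cluster (0.33 in males, 0.45 in females). Some marker lists moved with these deviations in females. Over the 9 genes of the cluster the correlations with the fat body list ran from 0.26 for GstE6 to 0.79 for GstE3 and GstE9, those with Irk3 from 0.16 for GstE6 to 0.70 for GstE10, and those with the gut list from 0.03 for GstE4 to 0.65 for GstE9. Those with the yolk and eggshell list ran from 0.14 for GstE7 to 0.51 for GstE10, and those with the seminal fluid list from -0.30 for GstE6 to 0.12 for GstE1. In males the fat body values ran from -0.29 for GstE10 to 0.54 for GstE7. The male gut values ran from -0.33 for GstE1 to 0.10 for GstE10, and those of Irk3 from -0.21 for GstE3 to 0.25 for GstE10. Male yolk and eggshell values ran from -0.38 for GstE6 to 0.05 for GstE4. The part of these tissues in the cluster medians was not tested. The pairs share their arrays and their genes, so these medians are a description.

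**Figure D4:**
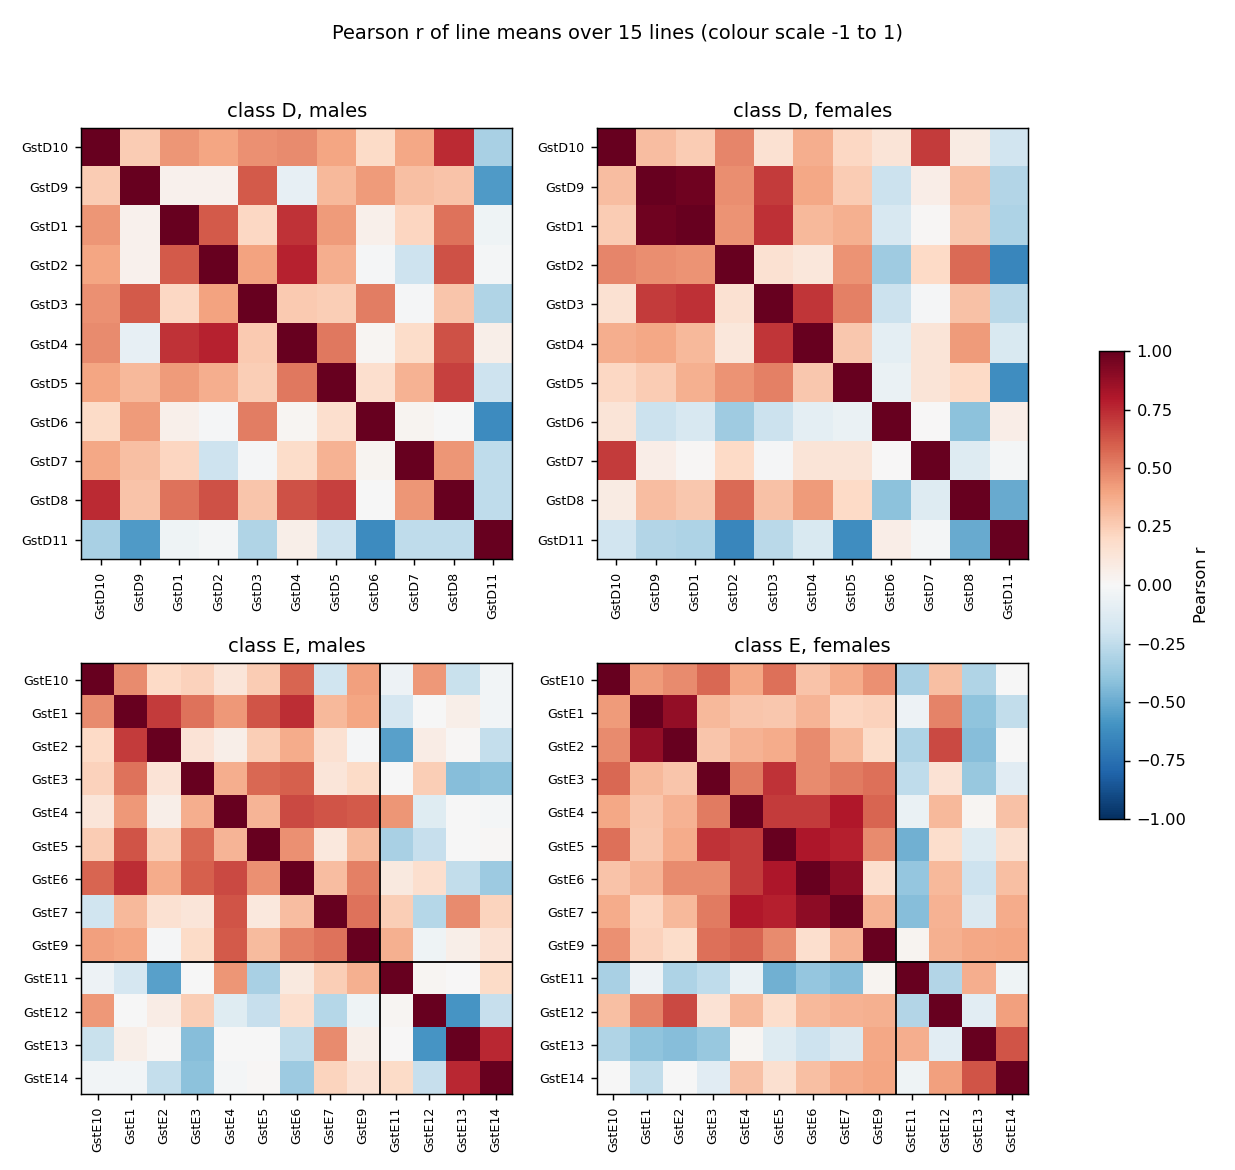
Pearson correlation of line means over 15 lines for all pairs of class D genes (top) and class E genes (bottom) in males (left) and females (right), with genes in order along the arm and black lines that separate the epsilon cluster from GstE11 to GstE14. The block of positive values in the cluster has a median of 0.37 in males and 0.46 in females, and GstD1 and GstD9 reach 0.97 in females and 0.04 in males.

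In females the highest epsilon pairs were GstE6 and GstE7 (r = 0.89, rho 0.75, permutation p = 1.70e-04, r = 0.80 without P07 and P15), GstE1 and GstE2 (r = 0.88, rho 0.78, permutation p = 5.00e-05, r = 0.76 without P18 and P50) and GstE5 and GstE6 (r = 0.81, rho 0.80, permutation p = 5.50e-04, r = 0.58 without P07 and P22). The same GstE6 and GstE7 had 0.31 in males (permutation p = 0.262). In males the highest were GstE13 and GstE14, which do not neighbour each other (r = 0.75, rho 0.53, permutation p = 0.00185, r = 0.58 without P26 and P56), GstE1 and GstE6 (r = 0.74, rho 0.64, permutation p = 0.00123, r = 0.41 without H07 and H12) and GstE1 and GstE2 (r = 0.70, rho 0.85, permutation p = 0.00317, r = 0.83 without H07 and H12). The lowest were GstE12 and GstE13 in males (r = -0.59, rho -0.69, permutation p = 0.0198, r = -0.63 without P07 and P48) and GstE5 and GstE11 in females (r = -0.48, rho -0.29, permutation p = 0.0680, r = -0.22 without H14 and P07, or -0.27 with the lines ranked by GstE5). Adjusted over all 18768 probe sets paired with the same gene, no pair named here or below passed an FDR of 0.05. With 100000 permutations the smallest p is 1e-05, so a pair that stands alone cannot go below an adjusted p of 0.188.

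Over the 55 class D pairs the median was 0.26 in males and 0.15 in females, and without line H12 the male value was 0.15. GstD1 and GstD9 in females had the highest correlation of any pair within a class (r = 0.97, rho 0.88, permutation p = 2.00e-05, adjusted p = 0.282, r = 0.96 without P18 and P26). Among the 18768 other probe sets GstD9 was the one most like GstD1 in females. In males the same pair had 0.04 (rho 0.08, permutation p = 0.886). GstD1 and GstD3 (r = 0.73, rho 0.80, permutation p = 0.00229, r = 0.52 without P18 and P26) and GstD3 and GstD4 (r = 0.71, rho 0.65, permutation p = 0.00255, r = 0.72 without P13 and P18) followed in females. In males the highest were GstD2 and GstD4 (r = 0.77, rho 0.76, permutation p = 5.50e-04, r = 0.64 without H12 and P07), GstD8 and GstD10 (r = 0.75, rho 0.73, permutation p = 7.20e-04, r = 0.62 without H09 and H12) and GstD1 and GstD4 (r = 0.72, rho 0.61, permutation p = 0.00215, r = 0.52 without H14 and P07). The male line shares of GstD1 (18.4%), GstD2 (13.2%), GstD4 (8.82%) and GstD8 (12.2%) were not called, nor was the female share of GstD4 (9.64%). The male mean of GstD4 was 4.20, where probe sets show little signal. Over array deviations from the line means these male pairs had 0.76, 0.76 and 0.65. The part of such deviations in the line means was not tested. Line H12 was the lowest male line for GstD2, GstD3, GstD4, GstD6, GstD8, GstD9 and GstD10. Of these only GstD3 and GstD10 were called between male lines, so the lowest line of the others carries little weight. H12 was the lowest line for 8.49% of all probe sets called in males. Without H12 and P07 the class D median in males was 0.0949. The lowest pair in each sex held GstD11, at the end of the cluster, with GstD6 and GstD11 in males (r = -0.63, rho -0.37, permutation p = 0.0117, r = -0.31 without H07 and H12) and GstD2 and GstD11 in females (r = -0.65, rho -0.50, permutation p = 0.00855, r = -0.24 without H12 and P07). The other pairs of GstD11 lay between -0.57 and 0.06 in males and between -0.62 and 0.06 in females. Ranking the lines to leave out by the other gene of a pair gave -0.48 for GstD2 and GstD11 in females and 0.75 for GstD8 and GstD10 in males.

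The omega genes lie together but did not vary together. In males GstO1 and GstO2 had r = -0.56 (rho -0.66, permutation p = 0.0292, r = -0.43 without H07 and P26), GstO2 and GstO3 had r = -0.55 (rho -0.55, permutation p = 0.0359, r = -0.54 without P15 and P56) and GstO1 and GstO3 had r = 0.43 (rho 0.55, permutation p = 0.111, r = 0.51 without H07 and P26). In females these pairs lay between 0.07 and 0.17. The highest theta pair in males was GstT1 with GstT2 at 0.12 (rho 0.15, permutation p = 0.668, r = 0.13 without H07 and H12) and the lowest GstT1 with GstT3 at -0.39 (permutation p = 0.145). In females GstT3 and GstT4 had 0.50 (rho 0.38, permutation p = 0.0591, r = 0.26 without H12 and H13), and the lowest pair was GstT1 and GstT2 at -0.23. GstZ1 and GstZ2 had 0.07 in males (permutation p = 0.817) and -0.14 in females (permutation p = 0.595).

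GstD2, GstD5 and GstD8 varied widely between male pools of the same line. The SD between arrays of a line was 1.08 for GstD2 in males and 0.28 in females, 0.75 and 0.44 for GstD5, and 0.62 and 0.20 for GstD8, whereas the median over all probe sets was 0.14 in males and 0.16 in females. The male SD of GstD2 was above that of 99.96% of probe sets, that of GstD5 above 99.83% and that of GstD8 above 99.66%. The 4 male arrays of GstD2 in line H10 were 7.82, 6.34, 10.36 and 6.64, and in H13 they were 10.25, 7.16, 8.53 and 7.16. In P50 1 array was at 9.51 and the others at 6.54, 6.60 and 6.12, while in H12 all 4 lay between 5.73 and 6.17 and in P48 between 6.64 and 7.04. The median range within a line was thus 2.13, and 14 of 60 male arrays were over 8. The line term of GstD2 was not called in males (13.2%, adjusted p = 0.211) but was called in females (51.5%, adjusted p = 1.84e-04), where H12 was lowest at 6.09 and the other lines lay between 6.80 and 7.54. The mean of GstD2 over the male arrays numbered 2, 3 and 4 was 6.85, 7.49 and 6.97, and over those numbered 1 it was higher than over any of these, and high arrays occurred under more than 1 number.

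**Figure D5:**
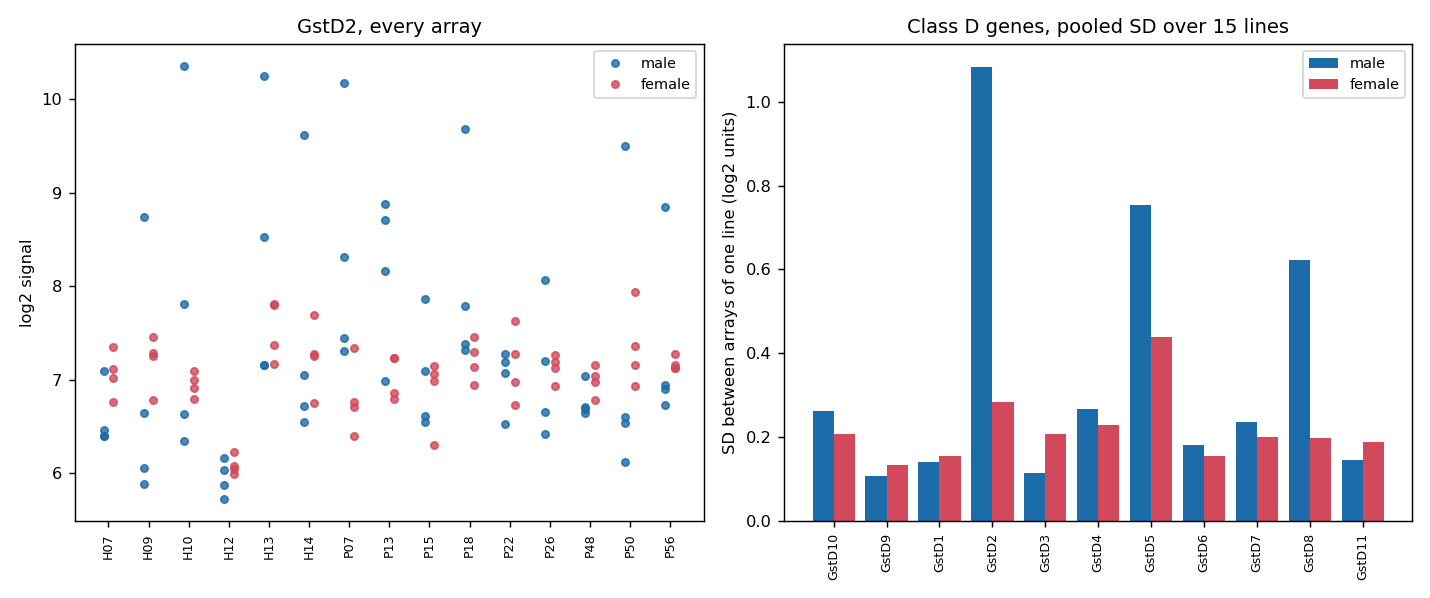
Level of GstD2 on the log2 scale in every array of the 15 lines, males and females in separate colours (left), and the SD between arrays of one line, pooled over lines, for the 11 class D genes in order along the arm (right, log2 units, bars from 0). Male arrays of GstD2 reach 10.36 against a female maximum of 7.94, and the male SDs of GstD2, GstD5 and GstD8 are 1.08, 0.75 and 0.62.

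Most of the delta cluster deviated with GstD2 in those pools. Over the 60 male arrays, as deviations from their line means, GstD2 had correlations of 0.76 with GstD8, 0.76 with GstD4, 0.75 with GstD10, 0.74 with GstD9, 0.72 with GstD5 and 0.69 with GstD1, but 0.10 with GstD6 and -0.36 with GstD11, and GstD3 and GstD7 had 0.43 and 0.50. In females the first 8 of these were 0.40, 0.31, 0.39, 0.12, 0.27, -0.15, -0.24 and 0.18 in that order. The median over all class D pairs of array deviations was 0.51 in males and 0.15 in females, with 28 and 3 of 55 pairs at 0.5 or more, against 1.23% and 3.62% of all pairs of probe sets. Outside the family the genes that deviated most with GstD2 in males were CG31087 (0.80), CG5399 (0.80), CG14495 (0.79), Drsl2, a drosomycin-like peptide gene (0.79), and CG13321 (0.79). These genes and these arrays were singled out after the values were seen. The yolk and eggshell transcripts, which differed between male arrays, had a correlation of -0.14 with GstD2 over the same deviations, and across the family such correlations ran from -0.52 for GstE13 to 0.22 for GstD11. The gut digestive enzyme list also had negative correlations over these deviations, with -0.56 for GstD2, -0.51 for GstD9, -0.45 for GstD5 and -0.39 for GstD8, but 0.01 for GstD7. The correlations of GstD2 were 0.25 with the fat body list, 0.17 with Irk3 of the Malpighian tubules and -0.05 with the seminal fluid list. The part of these tissues in the array deviations was not tested.

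For the 3 members with the largest male line share, the 5 genes outside the family most like them over the 15 male line means were found. GstT3 was most like gol (r = 0.87, rho 0.70), CG32806 (0.85, rho 0.63), Rbcn-3B (0.82, rho 0.73), B-H2 (0.81, rho 0.81) and hfw (0.81, rho 0.75), of which all but gol are X-linked as it is. GstE10 was most like alpha-Spec (0.86, rho 0.84), CG17571, Alg14, CG10962 and CG8679 (0.83 each), and GstE5 most like BCAS2 (0.91, rho 0.79), Ubr3 (0.83, rho 0.84), PheRS-m (0.80, rho 0.81), CG15635 (0.79, rho 0.63) and CG11362 (0.78, rho 0.77). Permutation p-values adjusted over 18768 probe sets were between 0.188 and 0.751 for these 15 genes, so none passed. GstO1 stood apart among the members compared with all probe sets, since 320 of 18768 correlated with it in males and 1125 in females at an adjusted p under 0.05, while for the other members so compared the count was 0. Not all members were so compared, and some only in a single sex. The female line share of GstO1 (29.7%) was not called (adjusted p = 0.0403, likelihood ratio test).

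Line levels of single members moved with some marker lists of tissues that express these enzymes. The 25 measured digestive enzyme genes of the gut had mean levels of 11.01 to 11.44 between male lines and 10.33 to 10.76 between female lines, and the 7 fat body genes 10.11 to 10.45 and 9.48 to 10.06. GstE9 in females had correlations of 0.74 with the gut list and 0.67 with the fat body list over 15 lines, whereas GstD1 in females had -0.19 and -0.20 and GstT3 in males 0.35 and -0.62. GstS1 in males had -0.70 and GstT2 in males 0.69 with the fat body list. The single Malpighian tubule gene measured, Irk3, had 0.79 with GstE2 and with GstE12 in females. These values come from the same arrays and were singled out after all correlations of members with these lists had been seen, and the part of the tissues in the line differences was not tested.

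The other genes of glutathione metabolism and redox defence were split by sex. Over all probe sets 30.5% were called higher in males and 60.9% higher in females, or 91.4% in either direction. Of 5 genes for glutathione synthesis and turnover 3 were measured, and 2 were higher in females, Ggt-1 (gamma-glutamyl transpeptidase) with a difference of -1.78 and Gclm (the modifier subunit of the synthesis enzyme) with -0.53, while Gclc, the catalytic subunit, had -0.00 and did not pass. Of 16 listed thioredoxin, peroxiredoxin and antioxidant genes 9 were measured, and 4 were called higher in males and the other 5 in females, led by Trxr2 (thioredoxin reductase) at 3.38, Sod3 at -2.01, Cat (catalase) at 1.57 and Prx6a at -0.95. All 3 regulators of the Keap1 and CncC pathway were called with small differences, cnc at 0.41, Keap1 at -0.34 and maf-S at 0.11. Of 5 related genes outside the family names, se (sepia, an omega enzyme of eye pigment synthesis, between GstO3 and GstO2 on the arm) was higher in males by 1.04 and Mgstl, the microsomal enzyme, by 0.69, while gfzf (-1.06), eEF1gamma and Clic (-0.57) were higher in females. Mgstl is X-linked like GstT3, and lines took 90.6% of its male and 68.7% of its female variance. Of the exporters of glutathione conjugates Mrp4 was higher in males by 1.58 and MRP had -0.74. The line term was called in males for 2 of 3 synthesis genes, 5 of 9 antioxidant genes, 1 of 3 regulators, 4 of 5 related genes and 0 of 2 exporters, and in females for 0, 3, 0, 1 and 1. Sex by line was called for 1, 1, 0, 3 and 0 in the same order. The shares of all probe sets called were 27.3% for line in males, 8.36% for line in females and 9.87% for sex by line. Of the marker lists, 12 of 25 gut genes were higher in males (Mal-A7 by 3.48) and 5 in females, 4 of 7 fat body genes were higher in males (Lsp2 by 1.97) and 2 in females (Fbp1, -0.91), Irk3 was higher in males by 1.37, all 12 yolk and eggshell genes were higher in females and all 6 seminal fluid genes higher in males.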

How the data were processed

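Whole flies of 15 lines and both sexes were measured on 120 Affymetrix Drosophila Genome 2.0 arrays, with 4 arrays per line and sex. The authors deposited log2 values computed with RMA in the affy package (versions not given in the sources used here), which subtracts background, normalizes arrays by quantiles and summarises each probe set by 1 value. Whether this ran over all arrays together or within each sex is not given in the sources used here. Array medians lay between 6.28 and 6.45 in males and between 5.69 and 5.82 in females, so sex differences are relative to that scaling. Values were used as deposited. Tests covered 18769 probe sets, without 183 controls. No 2 arrays were identical (highest r 0.997), and the number of arrays limits the precision.

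Sex (F test, 14 residual degrees of freedom) and the line and sex-by-line variances (restricted likelihood ratio tests against an equal mixture of chi-square with 0 and 1 degrees of freedom) were tested in closed form and adjusted by Benjamini-Hochberg at an FDR of 0.001. Correlations over lines used 100000 two-sided permutations and an FDR of 0.05, with r repeated without the 2 lines farthest from the median (of the gene whose symbol sorts first, for a pair). The batch of each array is not in the labels, so no batch term was fitted. The scripts were tested on simulated data. Python 3.11.15 (numpy 2.4.6, pandas 2.3.3, scipy 1.17.1, numba 0.67.0, matplotlib 3.10.9) and R 4.3.3 with limma 3.58.1 were used.

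Members and lists were chosen with earlier results of these data known. Named by rule were, in every class, the members with the largest sex difference each way and the highest and lowest mean, the 8 with the largest share in each of the line terms by sex and in sex by line, those whose difference changed sign with the centring, in each class the 3 highest pairs and the lowest, 5 genes most like each of the 3 members with the largest male line share, and up to 4 genes of each other list by sex difference. Arrays are given singly for the 6 members with the largest male line share. Genes outside this rule were chosen after their values were seen. Gene order and arms are from the RefSeq gene table, and sequences were not used here. Alternatives were 2 centrings, a replicate block, replicate numbers and lines left out, dim probe sets (mean under 5 in both sexes) or probe sets with several matches left out, all probe sets of a gene, limma, an FDR of 0.05, Spearman correlation and deviations of single arrays. Replicate numbers were not taken to pair the sexes, since same-numbered male and female arrays of a line had a median correlation of deviations of 0.05 (60 pairs, -0.12 to 0.22).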

Additional observations from a re-analysis of the deposited data

Results flagged for a closer look

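Of 32 groups of 4 arrays given singly, 2 held an array far from the other 3 by Dixon's ratio, where chance flags about 1 in 20. GstT3 in females of H13 had 1 array at 10.30 and the others between 10.41 and 10.42 (ratio 0.906), and GstE1 in males of H12 had 1 array at 10.20 and the others between 10.94 and 11.06 (ratio 0.864).

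The sex difference changed from line to line, by the likelihood ratio test of the sex-by-line variance, for 13 genes. The share of variance was 85.2% for GstT3, 70.6% for GstD3, 65.2% for GstD1, 63.7% for GstE6, 62.4% for GstO2 and 51.0% for GstO1. It was 44.6% for GstD9, 43.0% for GstE7, 41.1% for GstT2, 41.0% for GstE13, 31.8% for GstT1, 23.9% for GstE10 and 22.5% for GstE1.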

How the results depend on the processing

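The count of genes higher in females was 16 with median centring and 13 with limma, that higher in males was 28 with ribosomal protein centring, and the share of all calls that were higher in males moved from 33.3% to 22.4% and 77.1% with these centrings. With ribosomal protein centring the differences of GstD1 (0.56), GstD3 (0.54), GstD4 (0.52), GstD6 (0.45), GstE14 (0.59), GstO2 (0.62) and GstT3 (0.57) changed sign, and with median centring those of GstD2 (-0.36), GstD7 (-0.47), GstD8 (-0.13), GstD10 (-0.37) and GstE6 (-0.59) did. The uncalled GstE6 sex difference ran from -0.0066 to 0.0888 without 1 replicate number (negative without number 3) and was -0.0206 without P07. Over both sexes the line term called 25 genes with limma, where it called 27.4% of all probe sets, and 5 at an FDR of 0.05. The median male-female correlation was 0.26 with Spearman. The class D median in males was 0.41 with ribosomal protein centring, 0.12 with Spearman, 0.51 over single-array deviations and 0.0949 without P07 and H12 (chosen after seeing the data), and the class E median in males was 0.22 with ribosomal protein centring. The cause was not tested.

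Without 1 replicate number, 16 to 18 genes were higher in males and 7 to 8 in females, sex by line was called for 7 to 8, the line term for 13 to 18 in males, 11 to 12 in females and 0 over both, and the median male-female correlation was 0.25 to 0.42. Without 1 line these were 16 to 18, 7 to 9, 10 to 13, 19 to 23, 13 to 17, 0 to 1 (1 without H07) and 0.29 to 0.48 (lowest without P13). Class medians without 1 line were 0.15 to 0.33 for class D in males (lowest without H12) and 0.12 to 0.20 in females, 0.0789 to 0.19 for class E in males (lowest without H07) and 0.23 to 0.37 in females (lowest without P18), and 0.23 to 0.41 and 0.29 to 0.51 in the epsilon cluster, where males had 0.28 without H12. Without 1 replicate number they were 0.17 to 0.32, 0.0844 to 0.28, 0.13 to 0.21, 0.22 to 0.34, 0.32 to 0.41 and 0.39 to 0.48 in that order.

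With the replicate number as a block, over both sexes or within each sex (the latter added after seeing the data), sex by line was called for 13 genes. The line term was called for 0 genes over both sexes, 25 in males and 14 in females. GstD7, GstD11, GstT2 and GstZ2 joined the male line calls. The block does not enter the error term of the sex test, so the counts of 18 higher in males and 8 in females could not change and are no check of sex. Over all probe sets the block moved the share called in males from 27.3% to 32.8%, and for sex by line from 9.87% to 11.9% over both sexes or 12.8% within each sex. Arrays of different lines with the same number had a median correlation of deviations of 0.12 in males (other numbers -0.04) and 0.07 in females (other numbers -0.02).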
